A study of Mus musculus with 3 samples.

Results

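Solute carriers are membrane proteins that move ions, metals, nutrients, nucleotides and metabolites across the plasma membrane or an organelle membrane, and their families are numbered largely by sequence and substrate. The genes described here are the carriers of families 25 and upward together with the organic anion transporters named Slco. They were chosen by symbol alone, as every gene with a probe set that lists it as its 1 gene and whose symbol names a family from 25 to 66 or begins with Slco and a digit. This gave 179 of the 18194 genes on the array, read by 351 probe sets, and 1 of them, Slc36a1os, is an antisense transcript of Slc36a1. The members include the mitochondrial carriers (Slc25), which link the matrix to the cytosol, zinc exporters and importers (Slc30 and Slc39), carriers that bring nucleotide sugars into the Golgi and endoplasmic reticulum (Slc35), amino acid carriers (Slc36, Slc38 and Slc43) and transporters for choline, fatty acids, copper, magnesium, heme and riboflavin. In dendritic cells (DC) such carriers supply the lysosome, the secretory pathway and the mitochondria, the compartments used for antigen handling and cytokine secretion.

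The data are 3 Affymetrix mouse arrays, each with 45101 probe sets, one for plasmacytoid DC (pDC), one for CD8+ conventional DC (cDC) and one for CD11b+ cDC. All were flow-sorted from spleens of healthy female C57bl/6 mice of 6 to 8 weeks after T and B cells had been depleted with magnetic beads, and no treatment or genetic change separates them. The RNA on each array was pooled from 5 to 8 mice and amplified from 20 ng. With 1 array per cell type there is no spread between samples, so the comparisons carry neither p-values nor standard errors, and animals, sort, amplification and array vary together with the cell type. In bulk RNA, fewer cells with a transcript and less of it per cell cannot be told apart.

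Values are the deposited intensities, called signals here. A signal counted as above background when it exceeded 111, the 95th percentile of 87 probe sets of smell and taste receptor genes on the array where that was highest. Each gene was read at its brightest probe set. It was called higher on an array when that signal was above background and at least 2-fold above the other, with values below background raised to it, so that a fold against such an array is a lower limit, written "at least". Signals of different genes are not compared, since probe sets differ in how strongly they bind.

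Marker lists were read to check the sorts. The pDC markers summed to 1017744 in pDC, 24912.5 in CD8+ cDC and 34078 in CD11b+ cDC, with 11, 8 and 8 of 11 above background. Conventional DC markers summed to 76310.4 in pDC, 662499 in CD8+ cDC and 550068 in CD11b+ cDC (6, 7 and 7 of 7). CD8+ cDC markers summed to 94415 in pDC, 1217312 in CD8+ cDC and 254820 in CD11b+ cDC (6, 7 and 6 of 7). CD11b+ cDC markers summed to 97874 in pDC, 9283.5 in CD8+ cDC and 356031 in CD11b+ cDC (6, 4 and 7 of 7), though Cd4 and Cd209a in that list were higher in pDC than in CD11b+ cDC, by 2.57-fold and 2.49-fold. Each list thus summed highest in the subset it names, though bright genes lead a sum. Wdfy4 alone gave 242586 in the CD8+ list for CD11b+ cDC. By gene, 10 of 11 pDC markers were higher in pDC than in each cDC subset, and 6 of 7 conventional DC markers were lower. Of 7 CD8+ cDC markers, 7 were higher in CD8+ cDC than in pDC and 6 than in CD11b+ cDC. Of 7 CD11b+ cDC markers, 7 were higher in CD11b+ than in CD8+ cDC and 5 than in pDC. T cell markers summed to 5396 in pDC, 719 in CD8+ cDC and 3114 in CD11b+ cDC, with 2, 1 and 1 of 6 above background. The Cd3 genes and Cd6 were below background on all arrays, Cd28 read 4830 in pDC alone, and Cd5 read 344 in pDC, 432.5 in CD8+ cDC and 2832 in CD11b+ cDC. NK cell markers summed to 733 in pDC, 738 in CD8+ cDC and 1140 in CD11b+ cDC, with 1, 2 and 3 of 6 above background, Gzma on all arrays and Ncr1, Prf1 and Eomes on none. Plasma cell markers, several of which pDC also express, summed to 185613 in pDC, 50224.2 in CD8+ cDC and 69236 in CD11b+ cDC, with 6, 4 and 5 of 7 above background and Tnfrsf17 below it on all arrays. B cell markers summed to 65216 in pDC, 32778 in CD8+ cDC and 15891 in CD11b+ cDC, with 3, 3 and 4 of 7 above background. Of these, Cd79a, Pax5 and Fcer2a were below background on all arrays, and Ms4a1 read 223 in pDC, 19147 in CD8+ cDC and 11046.5 in CD11b+ cDC. The neutrophil markers summed to 3047 in pDC, 1748 in CD8+ cDC and 17775 in CD11b+ cDC, with 8, 7 and 8 of 8 above background. Monocyte and macrophage markers summed to 78824 in pDC, 76741 in CD8+ cDC and 234562 in CD11b+ cDC. All 5 were above background on each array. Of the 5, 0 were higher and 4 lower in CD8+ than in CD11b+ cDC (9.84% and 10.3% of all genes). The ratio of 3' to 5' control signals for Actb, which grows as RNA is shortened, was 5.71 in pDC, 4.08 in CD8+ cDC and 2.91 in CD11b+ cDC. That for Gapdh was 16.2 in pDC, 17.6 in CD8+ cDC and 9.68 in CD11b+ cDC. The part of RNA length and of other cells in the results below was not tested.

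Of the 179 members, 121 were above background on at least 1 array (67.6%, against 60.5% of all genes), 113 of them on all 3 and 8 on 1 or 2. The 58 others included all 6 members of the Slco1 subfamily, the kidney and gut phosphate transporters Slc34a1, Slc34a2 and Slc34a3, and the folate transporter gene Slc46a1. By array, 117 members were above background in pDC, 118 in CD8+ cDC and 117 in CD11b+ cDC. A 2-fold difference in at least 1 pair of arrays was found for 61 members and in none for 60. The share of all genes with such a difference was not counted, so these counts describe the members only.

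Members were more often higher than lower in pDC. Of the 119 members detected in pDC or CD8+ cDC, 31 were higher in pDC (26.1%, against 16.0% of all genes) and 17 were lower (14.3%, against 14.8%). Against CD11b+ cDC, 27 of 120 were higher in pDC (22.5%, against 15.0%) and 12 were lower (10.0%, against 14.3%). Between the cDC subsets, 16 of 121 were higher in CD8+ cDC (13.2%, against 9.84%) and 19 were lower (15.7%, against 10.3%). The median log2 difference of members was 0.18 for pDC minus CD8+ cDC, 0.13 for pDC minus CD11b+ cDC and -0.01 for CD8+ minus CD11b+ cDC, beside 0.00, 0.01 and 0.01 over all genes tested. These 3 comparisons share arrays and are not independent of each other.

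The splits depended on how the arrays were scaled. With the arrays scaled on 18 hybridization spike-in probe sets, which moved the median of all genes to 0.65, -0.30 and -0.95 in these pairs, members were 53 higher and 13 lower in pDC than in CD8+ cDC (33.6% and 9.7% of all genes). They were then 17 higher and 16 lower in pDC than in CD11b+ cDC (10.6% and 19.9%), and 5 higher and 59 lower in CD8+ than in CD11b+ cDC (3.85% and 45.4%). Differences are therefore relative to the bulk of genes on each array. The spike-in signals differed by -0.64, 0.36 and 0.99 log2 in these pairs, each under the 2-fold of a call. This scaling therefore could not turn the direction of a call.

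**Figure D1:**
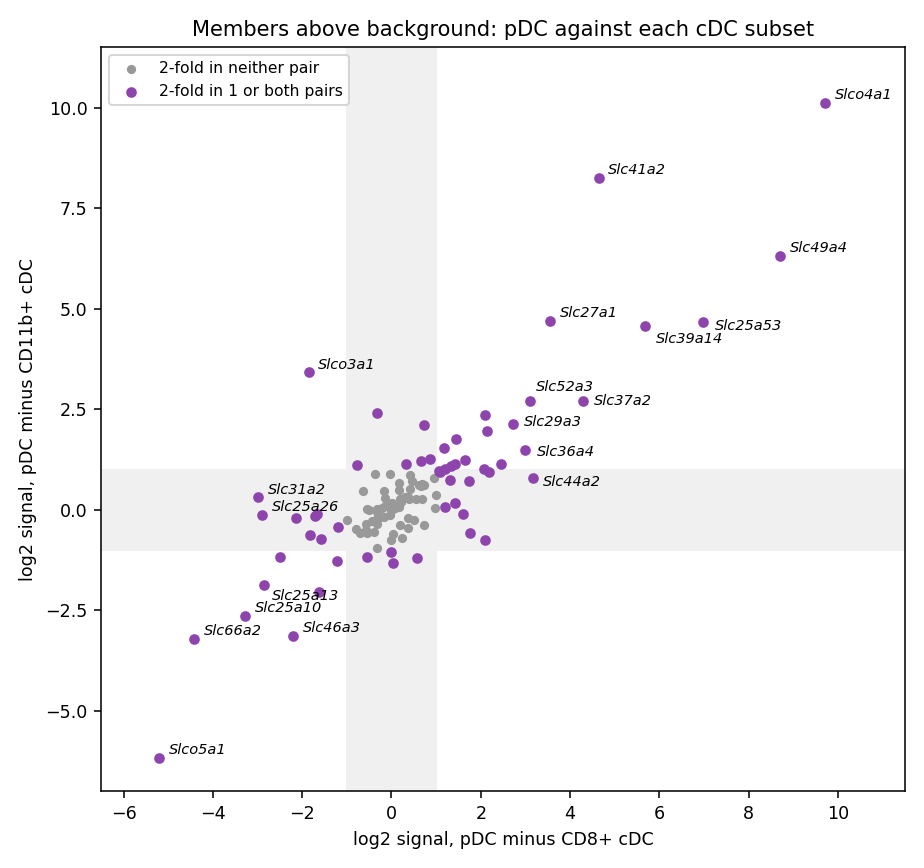
Each point is 1 of the 121 members above background, placed by its log2 signal in pDC minus CD8+ cDC (horizontal) and pDC minus CD11b+ cDC (vertical). Grey bands mark differences under 2-fold, and both axes share the pDC array. Slco4a1, Slc49a4, Slc41a2 and Slc25a53 lie far out toward pDC, and Slco5a1 and Slc66a2 toward the cDC subsets.

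Of the members, 10 were specific to pDC, that is at least 4-fold above the brighter of the other arrays (4.27% of 11011 genes above background were), 2 to CD8+ cDC (2.42%) and 0 to CD11b+ cDC (2.02%). The pDC members were Slco4a1, Slc49a4, Slc25a53, Slc41a2, Slc39a14, Slc27a1, Slc37a2, Slc52a3, Slc29a3 and Slc25a12. They come from 7 of the role groups described below: organic anions, other metals and vitamins, zinc, lipids, sugar phosphates, nucleosides and mitochondrial carriers. The CD8+ cDC members were Slc31a2 and Slc25a26. Requiring every probe set above background to pass left 6 for pDC and 1 for CD8+ cDC, without Slc25a53, Slc39a14, Slc29a3, Slc25a12 and Slc31a2. With spike-in scaling 8 were specific to pDC (4.09% of all genes), 1 to CD8+ cDC (1.29%) and 0 to CD11b+ cDC (3.71%). Those lost with this scaling were Slc29a3, Slc25a12 and Slc25a26. At 2-fold above both other arrays stood 20 members in pDC (16.5%, against 10.4% of all genes), 9 in CD8+ cDC (7.44%, against 6.01%) and 3 in CD11b+ cDC (2.48%, against 5.0%), the last being Slc25a37, Slc27a2 and Slc38a2. At 2-fold below both others stood 8 in pDC (6.61%, against 8.56%), 15 in CD8+ cDC (12.4%, against 4.34%) and 6 in CD11b+ cDC (4.96%, against 2.98%).

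Promoters are shown for some members specific to a cell type, all of them with a match to a site named below. Of the 12 specific members, 9 were found in a RefSeq table of promoters (GRCm38.p6), each window running from 250 bases before the start to 50 after it. Windows were searched on both strands for the E-boxes CAGGTG and CACGTG, the AP-1 site TGACTCA, the interferon response element (GAAA, 2 bases of any kind, then GAAA again) and the ETS site CCGGAAGT. Capitals mark every match, and those shown do not overlap. The 2 windows of Slco4a1 on the plus strand, chr2:180455995-180456294 and chr2:180460728-180461027, held CAGGTG at -223 in the upstream window and at -172 (as CACCTG) and -99 in the downstream one, counted from the start. Slc49a4, on the minus strand at chr16:35769321-35769620, held CACGTG at -207 and TGACTCA at -160. Slc31a2, on the plus strand at chr4:62286179-62286478, held CACGTG at its start. Not shown are Slc27a1 and Slc37a2, which also held matches, and Slc25a12, Slc25a53, Slc29a3 and Slc41a2, whose windows held none.
Slco4a1 upstream window: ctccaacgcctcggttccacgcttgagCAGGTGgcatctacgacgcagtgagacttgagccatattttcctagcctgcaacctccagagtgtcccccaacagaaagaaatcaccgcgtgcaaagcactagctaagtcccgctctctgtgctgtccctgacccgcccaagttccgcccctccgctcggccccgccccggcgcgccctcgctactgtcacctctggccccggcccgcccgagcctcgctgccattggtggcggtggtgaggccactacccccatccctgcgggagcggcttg
Slco4a1 downstream window: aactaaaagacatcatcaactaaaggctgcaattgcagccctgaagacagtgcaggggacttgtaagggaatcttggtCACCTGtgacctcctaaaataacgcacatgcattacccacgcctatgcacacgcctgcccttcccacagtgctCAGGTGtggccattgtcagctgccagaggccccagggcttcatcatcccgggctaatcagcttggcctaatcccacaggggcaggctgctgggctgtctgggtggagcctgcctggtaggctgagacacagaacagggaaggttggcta
Slc49a4: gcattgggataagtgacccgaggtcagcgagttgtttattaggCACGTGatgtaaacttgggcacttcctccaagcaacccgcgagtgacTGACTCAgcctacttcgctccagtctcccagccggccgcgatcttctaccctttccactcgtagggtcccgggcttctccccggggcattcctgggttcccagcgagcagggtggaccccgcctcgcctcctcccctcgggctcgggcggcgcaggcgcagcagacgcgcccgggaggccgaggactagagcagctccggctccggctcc
Slc31a2: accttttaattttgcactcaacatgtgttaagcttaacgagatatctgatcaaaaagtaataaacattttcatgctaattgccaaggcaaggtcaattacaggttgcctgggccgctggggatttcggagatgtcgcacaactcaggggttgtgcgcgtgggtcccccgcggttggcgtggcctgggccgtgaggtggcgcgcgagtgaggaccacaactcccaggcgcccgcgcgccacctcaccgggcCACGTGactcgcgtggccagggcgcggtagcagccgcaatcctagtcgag
Over the 12 windows of pDC-specific members, 3 held CAGGTG, 2 CACGTG, 2 TGACTCA, 0 the interferon response element and 0 CCGGAAGT. Of all 32851 windows, 20.2%, 7.15%, 5.2%, 3.44% and 3.89% held these in the same order. The windows of 1 gene are not independent, and a match is only a match of letters.

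**Figure D2:**
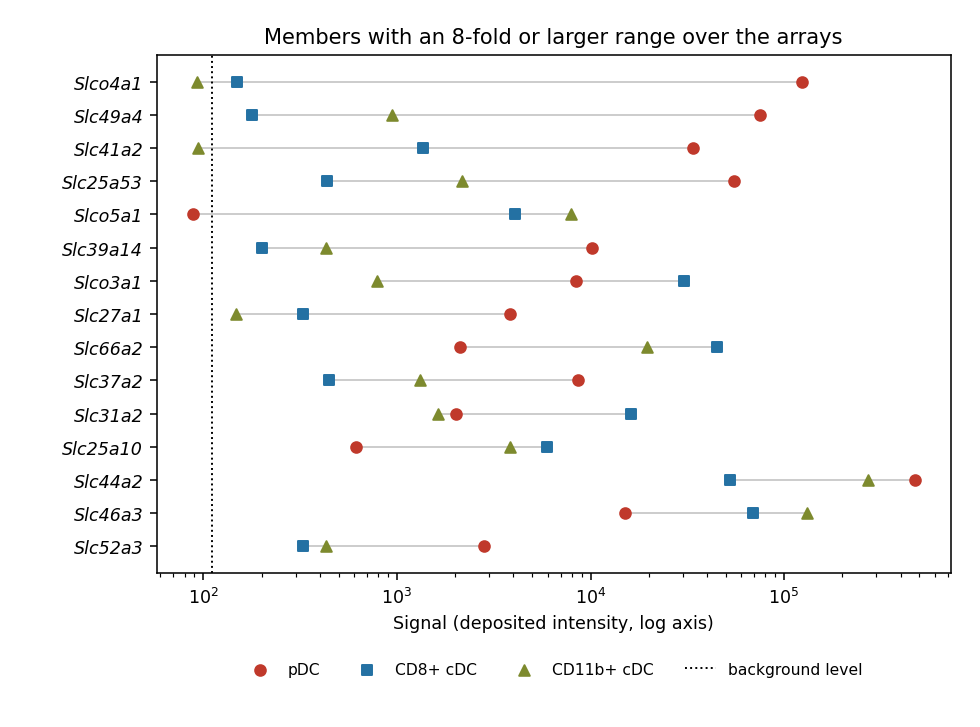
Signals of the 15 members whose brightest and dimmest arrays differ 8-fold or more, on a log axis, with 1 point per array and the background level dotted. The pDC point is the rightmost by far for Slco4a1, Slc49a4, Slc41a2, Slc25a53 and Slc39a14, and the leftmost for Slco5a1, Slc66a2, Slc25a10 and Slc46a3.

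Among the organic anion transporters, 5 of 15 were above background. Of these, 2 were higher and 2 lower in pDC than in CD8+ cDC (16.0% and 14.8% of all genes). Against CD11b+ cDC 2 were higher and 1 lower in pDC (15.0% and 14.3%). Between the cDC subsets 1 was higher and 1 lower in CD8+ cDC (9.84% and 10.3%). Slco4a1, which takes up thyroid hormone and other organic anions, gave 123616.5 in pDC, 149 in CD8+ cDC and 93.0 in CD11b+ cDC, the last below background. It was 832-fold higher in pDC than in CD8+ cDC and at least 1112-fold higher than in CD11b+ cDC. Its other probe set read 9654 in pDC and was below background in both cDC subsets (80.7 and 90.4), so that the lower limit there was 86.8-fold. Both probe sets thus placed it in pDC alone or nearly so. Slco5a1, a member with no settled substrate, showed the opposite: 88.3 in pDC, below background, against 4074 in CD8+ cDC and 7965 in CD11b+ cDC. It was thus at least 36.6-fold and at least 71.6-fold lower in pDC, while the other probe set was near background on all arrays (42.1, 42.2 and 115). Slco3a1, a carrier of prostaglandins, separated all 3 subsets with 8383 in pDC, 30361 in CD8+ cDC and 785 in CD11b+ cDC. It was 38.7-fold higher in CD8+ than in CD11b+ cDC, and all 3 of its probe sets kept this order, with folds of 30.7 to 48.4. The prostaglandin transporter gene Slco2a1 was dim, at 455 in pDC, 169 in CD8+ cDC and 406 in CD11b+ cDC, and its 2 calls did not hold with a background at the 99th percentile or with the mean of its probe sets.

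Zinc is moved out of the cytosol by Slc30 proteins and into it by Slc39 proteins, from outside the cell or from organelles. Of 24 zinc transporters 17 were above background, and 6 were higher in pDC than in CD8+ cDC, 5 higher than in CD11b+ cDC and 0 lower in either pair. In these pairs 16.0% and 15.0% of all genes were higher in pDC, and 14.8% and 14.3% lower. The median log2 difference was 0.50 against CD8+ cDC and 0.47 against CD11b+ cDC, beside 0.00 and 0.01 over all genes. With spike-in scaling the counts were 9 and 3 of 17 (33.6% and 10.6% of all genes), with medians of 1.14 and 0.11 beside 0.65 and -0.30 over all genes. The importers carried most of these calls: 5 of 10 Slc39 members were higher in pDC than in CD8+ cDC and 4 than in CD11b+ cDC, against 1 of 7 Slc30 members in each pair. Of the 10 importers, 9 were brightest in pDC and 1 in CD11b+ cDC, or 7 and 3 with spike-in scaling. Over all genes above background, 38.7% were brightest in pDC, or 31.1% with spike-in scaling.

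Slc39a14, a plasma membrane importer of zinc, iron and manganese, gave 10224 in pDC, 201 in CD8+ cDC and 429.5 in CD11b+ cDC. This was 50.8-fold and 23.8-fold higher in pDC, but its other probe set above background read 188 in pDC, against 70.5 and 69.3 in CD8+ and CD11b+ cDC, and did not reach 2-fold above background. Slc39a7, which releases zinc from the endoplasmic reticulum, gave 68018 in pDC, 30286.5 in CD8+ cDC and 23629.9 in CD11b+ cDC (2.25-fold and 2.88-fold higher). Slc30a5, which loads zinc into the early secretory pathway, gave 62629 in pDC, 24937 in CD8+ cDC and 29306 in CD11b+ cDC. In all of these the pDC signal stood above both cDC signals. Slc39a11 was 2.7-fold higher in pDC than in CD8+ cDC and 2.2-fold higher than in CD11b+ cDC. Slc39a8, an importer of zinc and manganese, was 2.71-fold and 3.4-fold higher at a signal of 897 in pDC, but not with the mean of its probe sets. Slc30a7, of the Golgi, was 2.15-fold higher in CD8+ than in CD11b+ cDC, and Slc30a4 was flat, at 11197 in pDC, 10628 in CD8+ cDC and 10811 in CD11b+ cDC. Spike-in scaling took Slc30a5 and Slc39a11 below 2-fold against CD11b+ cDC, and Slc30a7 below it between the cDC subsets, as the mean of probe sets did for Slc30a7.

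**Figure D3:**
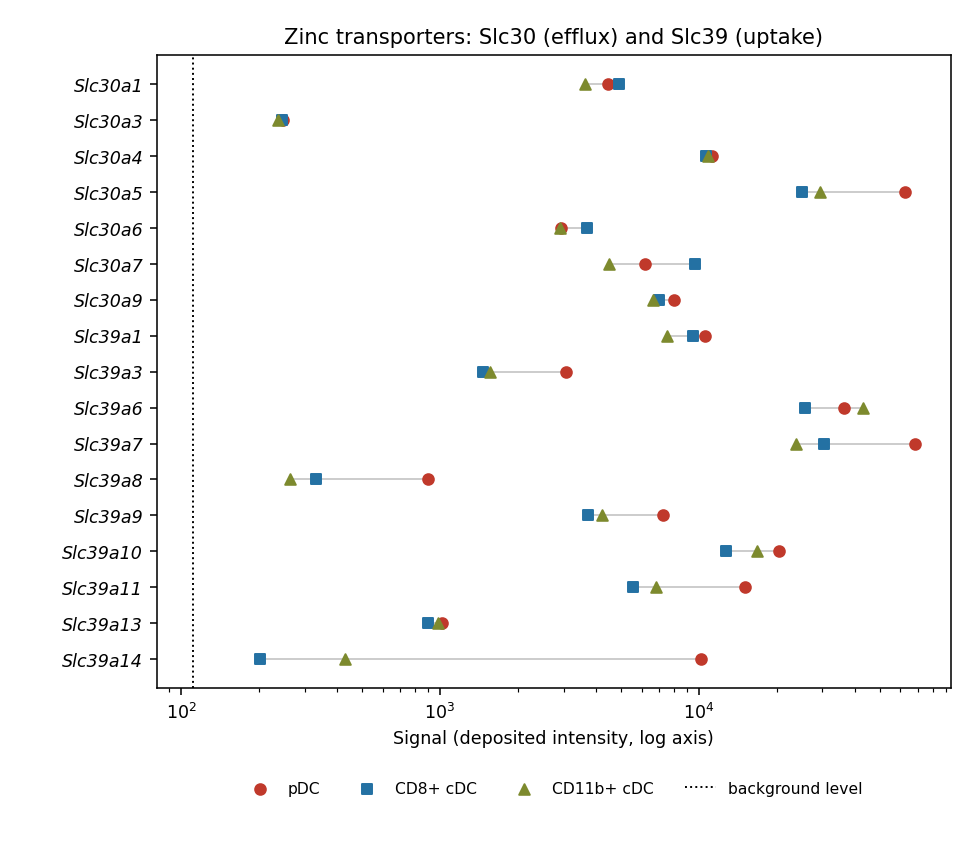
Signals of the 17 zinc transporters above background on a log axis, with 1 point per array and the background level dotted. The pDC point is the rightmost for 9 of the 10 Slc39 genes and for 4 of the 7 Slc30 genes.

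A list of 8 genes of zinc binding and sensing held the metallothionein genes Mt1 to Mt4, their regulator Mtf1 and the zinc-dependent enzyme genes Car2, Ace and Alpl. Of these, 6 were above background, 0 were higher in pDC in either pair, 1 was lower than in CD8+ cDC and 3 were lower than in CD11b+ cDC (medians -0.27 and -0.84). In these pairs 16.0% and 15.0% of all genes were higher in pDC, and 14.8% and 14.3% lower. The metallothionein gene Mt1 gave 317 in pDC, 4656 in CD8+ cDC and 2460.4 in CD11b+ cDC, which put it 14.7-fold and 7.76-fold lower in pDC. Mt2 was 2.5-fold lower and Car2, a carbonic anhydrase gene, 2.39-fold lower in pDC than in CD11b+ cDC.

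Among transporters of other metals, heme and vitamins, 10 of 12 members were above background. Against CD8+ cDC 3 were higher and 3 lower in pDC (16.0% and 14.8% of all genes), and against CD11b+ cDC 3 were higher and 1 lower (15.0% and 14.3%). Slc49a4, a lysosomal membrane protein, gave 75032 in pDC, 179 in CD8+ cDC and 947 in CD11b+ cDC, so that it was 418-fold and 79.2-fold higher in pDC. The dimmer probe set read 453 in pDC and was below background in CD8+ and CD11b+ cDC (107 and 102), at least 4.07-fold. Slc41a2, a magnesium transporter, separated all 3 subsets, at 33844.5 in pDC, 1358 in CD8+ cDC and 93.5 in CD11b+ cDC, the last below background. It was 24.9-fold higher in pDC than in CD8+ cDC, and at least 12.2-fold higher in CD8+ than in CD11b+ cDC, from 1 probe set. The riboflavin transporter gene Slc52a3 was 8.56-fold and 6.51-fold higher in pDC, at 2806 in pDC, 328 in CD8+ cDC and 431 in CD11b+ cDC.

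Slc31a2, related to the copper importer Slc31a1 and found on endosomes and lysosomes, marked CD8+ cDC. It gave 2028 in pDC, 16148 in CD8+ cDC and 1639 in CD11b+ cDC, and both probe sets were highest in CD8+ cDC. Slc31a1 itself was 2.3-fold lower in pDC than in CD8+ cDC, a call lost with spike-in scaling and with the mean of its probe sets. Slc46a3, a lysosomal carrier, was bright in both cDC subsets, at 14986 in pDC, 69208.5 in CD8+ cDC and 131527 in CD11b+ cDC. It was 4.62-fold lower in pDC than in CD8+ cDC and 8.78-fold lower than in CD11b+ cDC. At the brightest probe set, neither Slc40a1, the iron exporter ferroportin, nor Slc48a1, a heme transporter of lysosomes, reached 2-fold in a pair. Slc40a1 gave 17745 in pDC, 17454 in CD8+ cDC and 27043 in CD11b+ cDC, and Slc48a1 gave 5216, 3908 and 3615 on the same arrays. The other probe set of Slc40a1 was 2.47-fold lower in pDC and 3.68-fold lower in CD8+ cDC than in CD11b+ cDC.

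Macrophages of the red pulp, which recycle iron, use Slc40a1 heavily, and all 12 red pulp macrophage markers were above background on each array. Their signals summed to 42195 in pDC, 256142 in CD8+ cDC and 198023 in CD11b+ cDC. Much of the CD8+ cDC sum was Treml4, at 163968. Of the 12 markers, 1 was higher and 5 were lower in CD8+ than in CD11b+ cDC (9.84% and 10.3% of all genes). In pDC 1 was higher and 4 were lower than in CD8+ cDC (16.0% and 14.8%). Against CD11b+ cDC 1 was higher and 8 were lower in pDC (15.0% and 14.3%). The part of such cells in the Slc40a1 signal was not tested. Of 25 iron and heme genes above background, 4 were higher and 5 lower in pDC than in CD8+ cDC (16.0% and 14.8% of all genes). Against CD11b+ cDC 2 were higher and 6 lower in pDC (15.0% and 14.3%). The transferrin receptor gene Tfrc was 11.6-fold higher in pDC than in CD8+ cDC, while Slc11a1, which pumps iron and manganese out of phagosomes, was 43.5-fold lower. Flvcr1, a choline and heme transporter, was 10.8-fold lower in pDC than in CD11b+ cDC.

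The mitochondrial carriers formed the largest family, with 34 of 44 members above background. In pDC 4 were higher and 5 lower than in CD8+ cDC (16.0% and 14.8% of all genes), and 5 were higher and 3 lower than in CD11b+ cDC (15.0% and 14.3%). Between CD8+ and CD11b+ cDC 5 went each way (9.84% of all genes higher and 10.3% lower in CD8+ cDC). Median log2 differences were 0.31 for pDC minus CD8+ cDC, 0.10 for pDC minus CD11b+ cDC and -0.01 for CD8+ minus CD11b+ cDC. Within 2-fold lay 24 of 33, 26 of 34 and 24 of 34 members in these pairs (all genes 69.2%, 70.7% and 79.9%), among them the ADP/ATP carrier genes Slc25a4 and Slc25a5, which exchange nucleotides for oxidative phosphorylation. Slc25a4 gave 127969 in pDC, 144087.5 in CD8+ cDC and 91824 in CD11b+ cDC, and Slc25a5 gave 129313, 212108 and 191516. Slc25a32, a folate and flavin carrier, and Slc25a25, an ATP-magnesium carrier, ranged over 1.12-fold and 1.09-fold.

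The aspartate-glutamate carriers, paralogs that serve the malate-aspartate shuttle, went in opposite directions. Slc25a12 (aralar) gave 54359.9 in pDC, 12667 in CD8+ cDC and 10690.5 in CD11b+ cDC, so that it was 4.29-fold and 5.08-fold higher in pDC. Slc25a13 (citrin) gave 151 in pDC, 1091 in CD8+ cDC and 552 in CD11b+ cDC, which made it 7.21-fold and 3.65-fold lower. Another probe set of Slc25a12 read 1486 in pDC, against 257.5 and 488 in CD8+ and CD11b+ cDC. The third read 214 in pDC, against 79.0 and 68.1, which is under 2-fold above background. Slc25a13 had 1 probe set, and its pDC call against CD11b+ cDC was lost with the background at the 99th percentile.

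Slc25a53, a carrier with no known substrate, was 125-fold higher in pDC than in CD8+ cDC and 25.3-fold higher than in CD11b+ cDC at a signal of 54827 in pDC. The probe sets of this gene disagreed in size, the other one reading 2927 in pDC, 2194 in CD8+ cDC and 1540 in CD11b+ cDC, which is under 2-fold in each pair. The dicarboxylate carrier gene Slc25a10 was lower in pDC, at 614 in pDC, 5976 in CD8+ cDC and 3823 in CD11b+ cDC (9.73-fold and 6.23-fold). Its dimmer probe set read 158 in pDC, 205 in CD8+ cDC and 208 in CD11b+ cDC. Slc25a33, a pyrimidine nucleotide carrier, gave 2153 in pDC, 391 in CD8+ cDC and 972.5 in CD11b+ cDC (5.51-fold and 2.21-fold higher in pDC). The orphan Slc25a35 gave 1867 in pDC, 564 in CD8+ cDC and 1136 in CD11b+ cDC, so that both were lowest in CD8+ cDC.

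CD8+ cDC stood highest at Slc25a26, which brings the methyl donor S-adenosylmethionine into mitochondria. It gave 1139.8 in pDC, 8520.1 in CD8+ cDC and 1254 in CD11b+ cDC, and its other probe set read 50.4, 536 and 51.7. The carnitine-acylcarnitine carrier gene Slc25a20, needed for fatty acid oxidation, was also highest in CD8+ cDC, with 9605.5 in pDC, 30316.5 in CD8+ cDC and 10252 in CD11b+ cDC. So was Slc25a38, a glycine carrier for heme synthesis, at 3241 in pDC, 11529 in CD8+ cDC and 5013 in CD11b+ cDC. Slc25a24, an ATP-magnesium carrier, was low in CD11b+ cDC, being 5.31-fold higher in pDC and 6.64-fold higher in CD8+ cDC, and the ornithine carrier gene Slc25a15 was 4.29-fold higher in pDC and 2.6-fold in CD8+ cDC than in CD11b+ cDC. CD11b+ cDC stood highest at the iron carrier gene Slc25a37 (mitoferrin), at 5717 in pDC, 3835 in CD8+ cDC and 13032 in CD11b+ cDC. Erythroid markers, whose cells use this carrier, summed to 19375 in pDC, 14213 in CD8+ cDC and 21572 in CD11b+ cDC, with Hba-a1 below background on all arrays and 6, 5 and 6 of 7 above it. Their part in the Slc25a37 signal was not tested. Spike-in scaling took Slc25a33 below 2-fold for pDC against CD11b+ cDC, and Slc25a15, Slc25a20 and Slc25a38 between the cDC subsets, where the mean of probe sets did so for Slc25a15 too.

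Of 26 genes of mitochondrial import and biogenesis above background in pDC or CD11b+ cDC, 0 were higher and 1 was lower in pDC, namely the calcium uniporter gene Mcu (2.99-fold). Of 25 above background in pDC or CD8+ cDC, 0 were higher and 2 were lower in pDC. These were the outer membrane genes Mtch2 (2.56-fold) and Vdac2 (2.26-fold). Of all genes, 15.0% were higher and 14.3% lower in pDC than in CD11b+ cDC, and 16.0% and 14.8% than in CD8+ cDC.

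Of 20 members of the amino acid transporter families, which include Slc36a1os and the nucleobase carrier Slc43a3, 14 were above background. Of these, 5 (Slc36a1, Slc36a4, Slc38a1, Slc43a2 and Slc43a3) were at least 2-fold lower in CD8+ cDC than in both other subsets, against 4.34% of all genes. Of the 14, 6 were higher and 3 lower in pDC than in CD8+ cDC (16.0% and 14.8% of all genes). In CD8+ against CD11b+ cDC, 2 were higher and 6 lower (9.84% and 10.3% of all genes), with a median of -0.68. Slc38a1, a glutamine importer, gave 73726 in pDC, 16245 in CD8+ cDC and 38684 in CD11b+ cDC, lowest in CD8+ cDC at both probe sets. The leucine and methionine carrier gene Slc43a2 gave 30005 in pDC, 9955 in CD8+ cDC and 32492 in CD11b+ cDC. Both were thus dimmest in CD8+ cDC, as was Slc43a3 at 1796 in pDC, 528 in CD8+ cDC and 2661 in CD11b+ cDC. Slc36a4, a proton-independent carrier of proline and tryptophan, was highest in pDC, at 3964 in pDC, 496 in CD8+ cDC and 1409.8 in CD11b+ cDC. Slc38a2, a glutamine importer induced by amino acid shortage, was highest in CD11b+ cDC, at 31589.8 in pDC, 30736 in CD8+ cDC and 78505 in CD11b+ cDC.

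Both PQ-loop members, Slc66a1 and Slc66a2, were highest in CD8+ cDC. Slc66a1, which exports lysine and arginine from lysosomes, gave 5655.5 in pDC, 24856 in CD8+ cDC and 6492 in CD11b+ cDC. Slc66a2, its relative, gave 2117 in pDC, 45281 in CD8+ cDC and 19522 in CD11b+ cDC, which made it 21.4-fold and 9.22-fold lower in pDC. Both of its probe sets above background showed this, but they are of types that can match several transcripts, and its 2 unique probe sets were below background on all arrays. Slc38a9, the lysosomal arginine sensor of the growth kinase mTORC1, was 2.14-fold higher in pDC than in CD8+ cDC, at 18575 in pDC, 8689.5 in CD8+ cDC and 9745 in CD11b+ cDC. Of its 7 probe sets, 3 passed the rule in this pair. Of 29 genes of lysosomal amino acid sensing by mTORC1, 5 were higher and 2 lower in pDC than in CD8+ cDC (16.0% and 14.8% of all genes). They were led by the transcription factor gene Mitf (3.09-fold higher) and Fnip2, a folliculin partner (12.4-fold lower). Slc38a10, found on the Golgi, gave 28736 in pDC, 15803 in CD8+ cDC and 12022 in CD11b+ cDC. Slc36a3, a relative of the proton-driven carrier Slc36a1, was dim, at 130.4 in pDC, 399.6 in CD8+ cDC and 539 in CD11b+ cDC, and its calls did not hold with a background at the 99th percentile. Spike-in scaling took Slc38a10 (pDC against CD11b+ cDC), Slc36a3 (pDC against CD8+ cDC) and both Slc66 genes (between the cDC subsets) below 2-fold, and the mean of all probe sets did so for Slc38a2 and Slc38a10 (pDC against CD11b+ cDC) and for Slc43a2 and Slc66a2 (between the cDC subsets).

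Lipid and choline transporters were higher in pDC for 3 of 5 members above background against CD8+ cDC and for 3 of 6 against CD11b+ cDC, with 0 and 1 lower. In these pairs 16.0% and 15.0% of all genes were higher in pDC, and 14.8% and 14.3% lower. The choline transporter-like gene Slc44a2 gave 471838 in pDC, 52286 in CD8+ cDC and 271736 in CD11b+ cDC, with all 3 probe sets lowest in CD8+ cDC by 5.12-fold to 6.04-fold against CD11b+ cDC. Slc44a1, a choline importer, gave 53731 in pDC, 12744 in CD8+ cDC and 26745 in CD11b+ cDC, the same order. Its calls did not hold with the mean of its probe sets, most of which were at background, and against CD11b+ cDC not with spike-in scaling. Slc27a1, a fatty acid uptake protein, gave 3844 in pDC, 327 in CD8+ cDC and 148 in CD11b+ cDC (11.8-fold and 25.9-fold higher in pDC), and both probe sets passed. Slc27a2, which activates very long fatty acids, was dim and above background in CD11b+ cDC alone, at 66.2 in pDC, 68.5 in CD8+ cDC and 231 in CD11b+ cDC, and its calls did not hold with a background at the 99th percentile. Slc33a1, the acetyl-CoA carrier of the endoplasmic reticulum, was lowest in CD11b+ cDC, at 13133 in pDC, 22413 in CD8+ cDC and 6022 in CD11b+ cDC, under 2-fold in both pairs with spike-in scaling.

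Of 9 choline and phosphatidylcholine genes above background in pDC or CD8+ cDC, 3 were higher and 2 lower in pDC (16.0% and 14.8% of all genes). Of 10 in pDC or CD11b+ cDC, 2 were higher and 2 lower in pDC (15.0% and 14.3%). Chdh, which oxidises choline to betaine in mitochondria, gave 71550.2 in pDC and was below background in CD8+ and CD11b+ cDC, at least 644-fold. Chka, the choline kinase that starts phosphatidylcholine synthesis, was 5.17-fold and 11.7-fold lower in pDC than in CD8+ and CD11b+ cDC.

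Of the nucleoside transporters 2 of 5 were above background. Slc29a3, which lets nucleosides out of lysosomes, gave 40186 in pDC, 6143 in CD8+ cDC and 9222 in CD11b+ cDC, and its probe sets agreed on a higher signal in pDC, by 3.23-fold to 6.54-fold against CD8+ cDC and 3.24-fold to 4.36-fold against CD11b+ cDC. Slc29a1, the nucleoside importer of the plasma membrane, was lowest in CD8+ cDC, at 932 in pDC, 219 in CD8+ cDC and 1571 in CD11b+ cDC. Of 13 genes above background that handle the endosomal RNA and DNA receptors TLR7 and TLR9, 4 were higher and 3 lower in pDC than in CD8+ cDC (16.0% and 14.8% of all genes). Against CD11b+ cDC 2 were higher and 1 lower in pDC (15.0% and 14.3%). Tlr7 itself, a receptor for single-stranded RNA, was 261-fold and 4.5-fold higher in pDC, and the lysosomal histidine and peptide carrier gene Slc15a3 was 20.5-fold higher in pDC than in CD8+ cDC.

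Among anion, sulfate and sugar phosphate transporters, 8 of 17 were above background. Slc37a2, a glucose 6-phosphate exchanger of the endoplasmic reticulum, gave 8615 in pDC, 444 in CD8+ cDC and 1319 in CD11b+ cDC (19.4-fold and 6.53-fold higher in pDC). None of its 3 relatives was called higher in pDC than in both cDC subsets. Slc37a3 gave 494 in pDC, 2806 in CD8+ cDC and 1118 in CD11b+ cDC, in the same order at both probe sets, Slc37a1 was 2.32-fold and 2.41-fold lower in pDC, and Slc37a4, which serves glucose 6-phosphatase, was flat at 3158 in pDC, 3082 in CD8+ cDC and 3093 in CD11b+ cDC. The sulfate transporter gene Slc26a2 gave 2104 in pDC, 6275 in CD8+ cDC and 3503 in CD11b+ cDC (2.98-fold lower in pDC than in CD8+ cDC). Slc26a6, an anion exchanger, gave 377 in pDC, 300.3 in CD8+ cDC and 172 in CD11b+ cDC, and its call in pDC against CD11b+ cDC held neither with spike-in scaling nor with a background at the 99th percentile. Spike-in scaling took Slc26a2 and Slc37a1 (pDC against CD8+ cDC) and Slc37a3 (between the cDC subsets) below 2-fold, and the mean of probe sets did so for Slc26a2.

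Most nucleotide sugar transporters lay within 2-fold, 17 of 21 between pDC and CD8+ cDC, 15 of 20 between pDC and CD11b+ cDC and 19 of 21 between the cDC subsets. Of all genes above background in these pairs, 69.2%, 70.7% and 79.9% did. In pDC 3 were higher and 1 lower than in CD8+ cDC (16.0% and 14.8% of all genes) and 4 higher and 1 lower than in CD11b+ cDC (15.0% and 14.3%). Between the cDC subsets 2 were higher and 0 lower in CD8+ cDC (9.84% and 10.3%). Slc35a1, which carries CMP-sialic acid into the Golgi, gave 17816 in pDC, 5706 in CD8+ cDC and 7602 in CD11b+ cDC. The orphan Slc35e3 was 4.41-fold and 3.9-fold higher in pDC, at 7669.8 in pDC, 1738 in CD8+ cDC and 1965 in CD11b+ cDC. Slc35e2, another orphan, gave 24596 in pDC, 10691 in CD8+ cDC and 12270.0 in CD11b+ cDC, and Slc35f5 gave 2928 in pDC, 3801.5 in CD8+ cDC and 1567 in CD11b+ cDC. The UDP-galactose carrier gene Slc35a2 was 2.32-fold higher in pDC than in CD11b+ cDC, but not at its unique probe set, which was below background in both. Only 1 of its 5 probe sets above background gave this call, the 5 differed in direction, and the mean of probe sets lost it. Slc35f6 was highest in CD8+ cDC at both of its probe sets above background (3.27-fold higher than in pDC), and Slc35a5 was flat, at 18335 in pDC, 18118 in CD8+ cDC and 17606 in CD11b+ cDC. Against CD11b+ cDC, spike-in scaling took Slc35a1, Slc35a2 and Slc35e2 in pDC, and Slc35f5 and Slc35f6 in CD8+ cDC, below 2-fold.

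Genes that make nucleotide sugars were above background in all 28 matched cases. In pDC 1 was higher and 4 lower than in CD8+ cDC (16.0% and 14.8% of all genes), and 4 were higher and 2 lower than in CD11b+ cDC (15.0% and 14.3%). Gne, the rate-limiting enzyme of sialic acid synthesis, gave 35982 in pDC, 4654.5 in CD8+ cDC and 4780.4 in CD11b+ cDC, 7.73-fold and 7.53-fold higher in pDC. Papss2, which makes the sulfate donor for glycans, was 39.1-fold and 69.6-fold lower in pDC. Of the remaining families, the sugar transporter gene Slc50a1 was 2.47-fold higher in pDC than in CD8+ cDC, and Slc45a1 differed by 1.01-fold over the arrays.

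**Figure D4:**
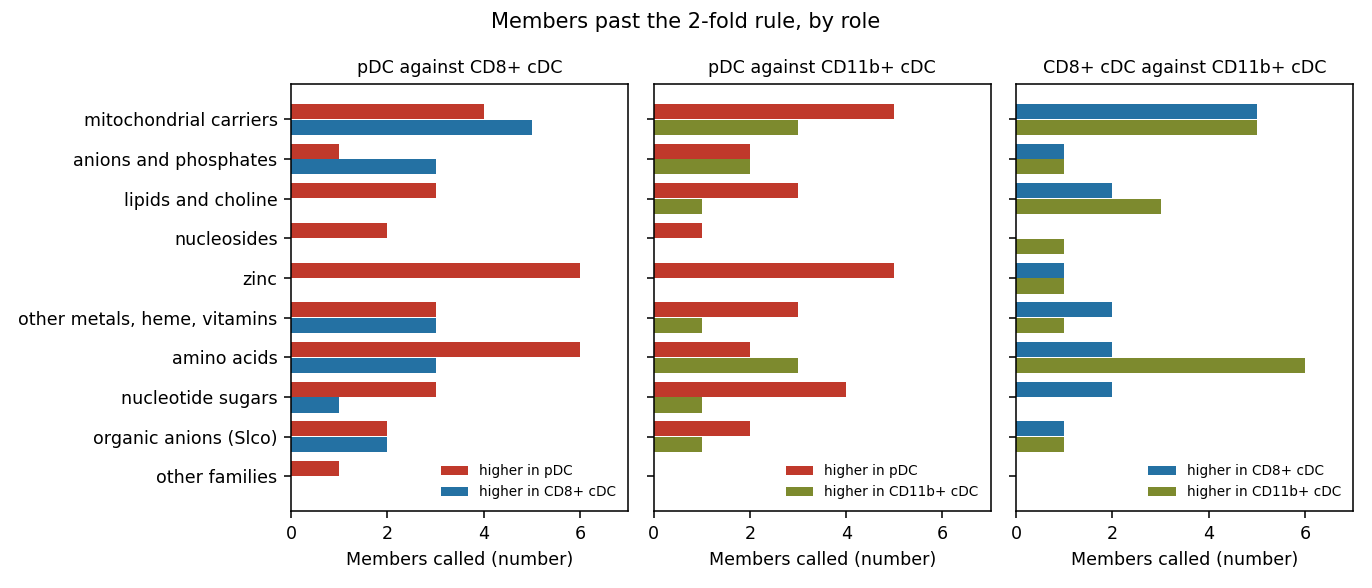
Number of members past the 2-fold rule in each role group, for the 3 pairs of arrays, with the colour of the array on which they were higher. In the zinc group all bars of the pDC pairs are on the pDC side, 6 and 5 members, and in the amino acid group 6 members were higher in CD11b+ than in CD8+ cDC.

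The splits within role groups moved with the scaling too. With spike-in scaling, mitochondrial carriers were 15 higher and 5 lower of 33 in pDC against CD8+ cDC. They were 4 and 4 of 34 in pDC against CD11b+ cDC, and 2 and 16 of 34 in CD8+ against CD11b+ cDC. Of all genes, 33.6% were higher and 9.7% lower in the first pair, 10.6% and 19.9% in the second, and 3.85% and 45.4% in the third. Amino acid transporters were 9 higher and 2 lower of 13, 1 and 3 of 14, and 0 and 10 of 14 in these pairs. Nucleotide sugar transporters were 5 higher and 1 lower of 18, 1 and 2 of 19, and 0 and 6 of 19. Lipid and choline transporters were 4 higher and 0 lower of 5, 1 and 1 of 6, and 0 and 4 of 6.

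Agreement between probe sets shows how far a call depends on the probe set read. It does not measure the error of an array or between samples. Of 25 members called between pDC and CD8+ cDC with a further probe set above background, the next brightest gave the same call for 17 and the opposite for 0. For pDC and CD11b+ cDC it gave the same call for 9 of 18, and for CD8+ and CD11b+ cDC for 10 of 15, again with 0 opposite. Between the brightest and next brightest probe set, the log2 difference varied with an SD of 1.61 over 54 genes, 1.45 over 55 and 0.72 over 52 in these pairs.

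**Figure D5:**
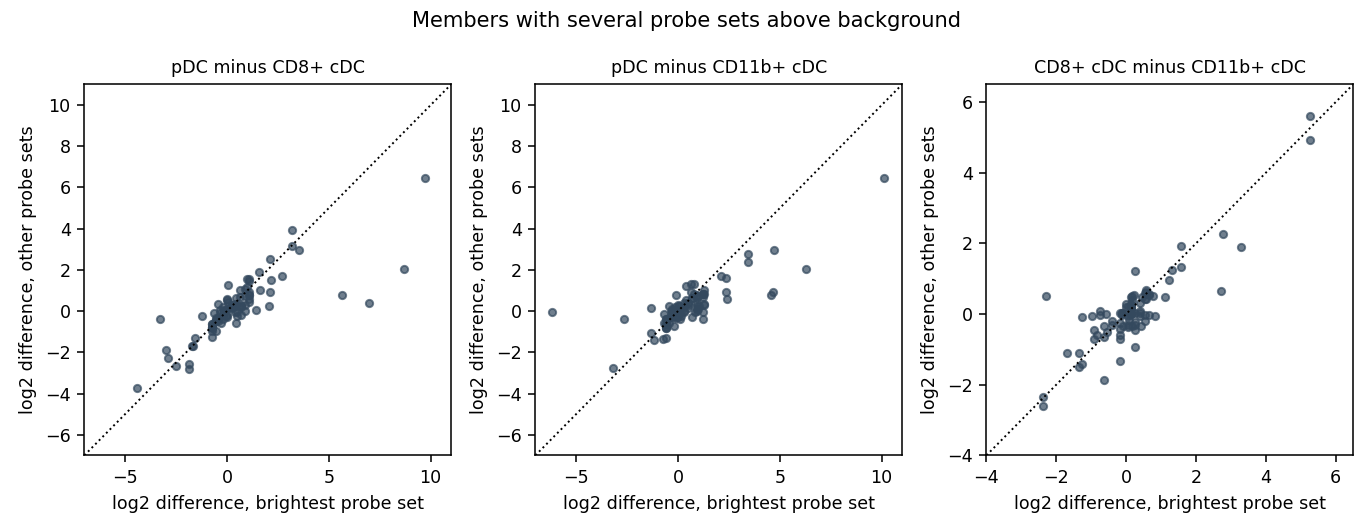
For members with several probe sets above background, the log2 difference at the brightest probe set (horizontal) and at each other one (vertical), in 3 panels for the 3 pairs, with equality dotted. In the pDC panels Slc25a53, Slc39a14, Slc49a4 and Slco4a1 fall far below the dotted line and Slc25a10 far above it, as does Slco5a1 against CD11b+ cDC.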

How the data were processed

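The deposited values are linear intensities of 45101 probe sets on 3 arrays, 1 per cell type, made by the authors with MAS5, per the submitters' processing notes. The version and the step that gave the columns nearly equal distributions are not given in the sources used here.

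Genes come from the platform's annotation, using probe sets with 1 gene symbol. Values were raised to a background of 111 (the 95th percentile of 87 chemosensory receptor probe sets, 5 of which exceeded it on some array) and taken to log2, and a gene's value is that of the probe set with the highest mean. Calls need 2-fold, and specificity 4-fold. No test is possible with 1 array per cell type. The alternatives were spike-in scaling, a background at the 99th or 90th percentile, the mean of all probe sets, leaving out probe set types that can match several transcripts, requiring every probe set to pass, 3-fold, and a floor of 4 times background.

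The members, gene lists and marker lists were chosen with earlier results of these data known. Named are, per pair and direction, up to 12 members with the largest differences, up to 4 per role group, members specific to a cell type, up to 6 of the flattest bright members, some members chosen by function or from earlier results, and up to 2 genes per list and direction. The undetected members, Slc36a1 and Slc36a1os were named after their values were seen. Python 3.11.15, pandas 2.3.3, numpy 2.4.6 and matplotlib 3.10.9 were used.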

Additional observations from a re-analysis of the deposited data

How the results depend on the processing

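Each cell type has 1 array from 1 pool of mice, so no value here has an error between samples, and the number of arrays limits the precision. No paired analysis was possible because each cell type has 1 array. Scaling the arrays on the spike-ins gave 53 members higher in pDC than in CD8+ cDC (31 with the deposited scaling), 17 higher in pDC than in CD11b+ cDC (27), 5 higher (16) and 59 lower (19) in CD8+ than in CD11b+ cDC, and 1 member specific to CD8+ cDC (2). The median log2 difference of members moved to 0.83 in pDC minus CD8+ cDC, turned to -0.19 in pDC minus CD11b+ cDC and moved to -1.0027 between CD8+ and CD11b+ cDC. The scaling itself shifts all genes, by 0.65, -0.30 and -0.95 in these pairs. A 3-fold rule, which calls fewer genes by construction, gave 15 higher and 6 lower in pDC than in CD11b+ cDC, and 7 higher and 7 lower in CD8+ than in CD11b+ cDC. Requiring every probe set to pass left 6 members specific to pDC and 1 to CD8+ cDC. The other counts stayed within 1.5 times. Over the alternatives other than spike-in scaling, the median ran from 0.16 to 0.28 in pDC minus CD8+ cDC, from 0.06 to 0.26 in pDC minus CD11b+ cDC and from -0.04 to -0.0017 between CD8+ and CD11b+ cDC. Of 119 calls of named members, 94 were kept with spike-in scaling, 107 with the background at the 99th percentile and 119 at the 90th. The mean of probe sets kept 98, and leaving out the probe set types that can match several transcripts kept 115. In these settings 0 calls turned direction, though the spike-in shifts were under 2-fold and so could not turn a call. The 3-fold rule was not applied to medians or specificity, the every-probe-set rule gives no median, and neither these rules nor the floor of 4 times background were run for single genes. The cause of calls lost was not tested.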

Other observations

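Of the probe sets that list several genes and so are not members, 1 lists Slc25a37 with Gm16867 and was below background on all arrays, at 61.8 in pDC, 62.0 in CD8+ cDC and 61.6 in CD11b+ cDC. Another lists Slc28a2 with Slc28a2b, genes of sodium-driven nucleoside uptake, and read 842 in pDC, 680.2 in CD8+ cDC and 601 in CD11b+ cDC.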
